A study of Mus musculus with 7 samples.

Results

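Cells sense oxygen through a short chain of proteins, and the RNA of 10 genes of that chain and of its best known outputs is described here in mouse pluripotent stem cells. The genes are Hif1a, Epas1, Egln1, Egln2, Egln3, Vhl, P4ha1, P4ha2, Vegfa and Bnip3. They were chosen by symbol, and 10 of 10 matched 1 row each of a table of 54838 genes. All 10 passed the low-count filter, with the lowest count in any library being 778 (Vhl in M colony 3).

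Hif1a and Epas1 encode the alpha subunits of the hypoxia-inducible factors (HIF), which are made all the time and destroyed when oxygen is present. The Egln genes encode prolyl hydroxylases that use oxygen, iron and 2-oxoglutarate to mark these subunits, and the Vhl protein binds the mark and directs the subunits to the proteasome. In low oxygen the subunits persist, pair with Arnt and bind DNA at a short core motif near their target genes. The control acts mainly on protein, so RNA levels do not report HIF activity by themselves. Pluripotent mouse cells are known for a high rate of glycolysis, many of whose enzymes are HIF targets.

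RNA came from 7 cultures: 1 library of V6.5, an established line of mouse embryonic stem cells (ESC), and 6 of induced pluripotent stem cell (iPSC) colonies. The colonies were reprogrammed with doxycycline (Dox) from splenic germinal center (GC) B cells of male mice given SRBC for 9 days. Sorted cells (B220+ CD38- Fas+) spent 6 days on mouse embryonic fibroblast feeders and then 10 days in reprogramming, and colonies grew 4 days without Dox. The groups were ESC (n = 1), colonies from bulk GC B cells (GC colonies, n = 3), and colonies titled M (n = 3), read as those from GC B cells sorted by an endogenous Myc-GFP reporter, which marks cells activated by T follicular helper cells. Each colony is a picked clone, grown on gelatin after 45 min of pre-plating against feeders. All groups share a serum and LIF medium. Incubator oxygen, not given in the sources used here, was not known. The labels do not say that the colonies of a group came from separate mice, so p-values measure the spread among these colonies, which may be technical.

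Totals ran from 31139508 to 35728921 counts per library. Against the labels, markers were checked. The 9 pluripotent stem cell markers summed to 7721 CPM (counts scaled to a common library size by TMM) in ESC and 5333 to 5911 CPM in the colonies, and 8 of 9 were lower in colonies. B cell markers summed to 7.76 to 10.5 CPM in all 7 libraries. Of 6 B cell markers tested over all 6 colonies against ESC, 0 passed edgeR or DESeq2, and 1 had an unadjusted p under 0.05 (1 passed edgeR without GC colony 3). In M colonies alone, Cd79b was lower than in ESC (edgeR adjusted p = 0.0413). That call was lost in DESeq2, with no low-count filter and in a fit of ESC and M colonies alone. It was also lost without GC colony 1, GC colony 2, M colony 1 or M colony 3. Trophoblast markers summed to 101 to 116 CPM, with 2 of 6 tested higher (Krt7 and Hand1) and 1 lower (Tfap2c) in colonies than in ESC. Tfap2c made up most of that sum, at 99.7 CPM in ESC, and the list's median log2 change was 0.90. Primitive endoderm and fibroblast markers differed between ESC and colonies, and their values are given after those of P4ha1 and P4ha2. Single markers were named after their values were seen.

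The 10 genes were compared per kilobase of exon (GENCODE M21), since raw CPM favours long genes. P4ha1 led in the colonies, at 70.6 ± 1.7 CPM per kilobase in GC colonies and 84.1 ± 8.9 in M colonies (SD, n = 3 each). Egln3 led in ESC, at 69.7 CPM per kilobase, ahead of Bnip3 (56.9) and P4ha1 (50.7). Averaged over the 7 libraries, 4 genes (P4ha1, Egln3, Bnip3 and Egln1) lay above the 93rd percentile of 20498 genes, from 93.3 for Egln1 to 96.9 for P4ha1.

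The HIF subunits themselves were among the lower of the 10 genes, although Hif1a and Epas1 lay at percentiles 82.7 and 82.3 of the 20498 genes. In GC colonies Epas1 (16.0 ± 0.5 CPM per kilobase), Egln2 (15.4 ± 1.3) and Hif1a (15.3 ± 0.4) did not differ beyond their spread, and the same trio overlapped in M colonies at 16.3 ± 0.9, 16.0 ± 1.2 and 16.7 ± 0.4. Vhl was lowest in the colonies, at 9.46 ± 0.66 in GC and 9.11 ± 0.95 in M colonies, and Epas1 was lowest in ESC, at 10.5. Other neighbours in the order that overlapped were Egln3 and Bnip3 in both colony groups, and Vegfa and Egln1 in GC colonies.

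**Figure D1:**
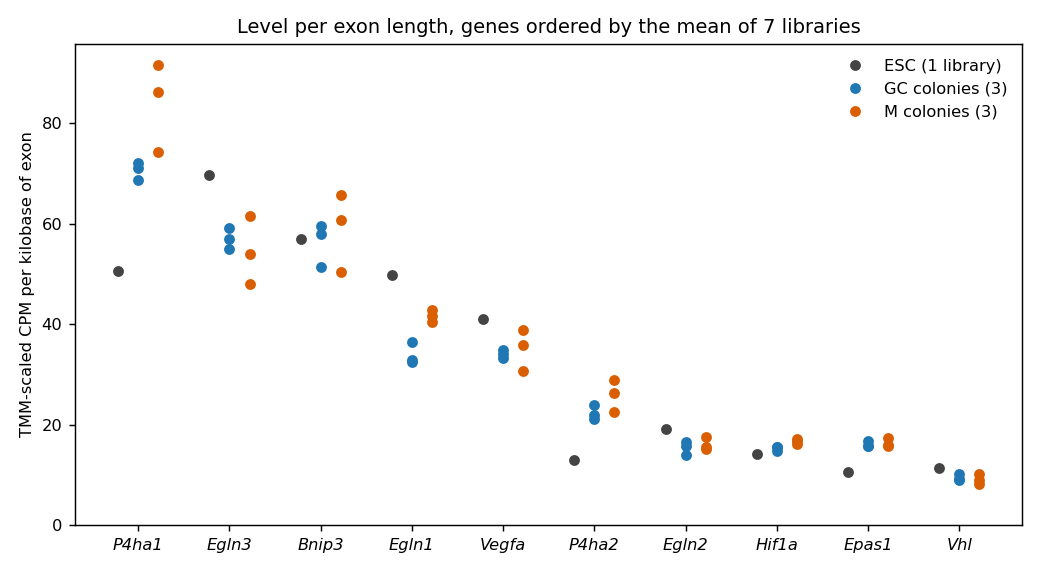
Level of each gene per kilobase of exon (vertical axis, TMM-scaled CPM per kilobase) in ESC, GC colonies and M colonies, 1 point per library, ordered by the mean of 7 libraries. P4ha1 rises from 50.7 in ESC to as much as 91.7 in an M colony, whereas Hif1a, Epas1, Egln2 and Vhl stay under 20 in all 7 libraries.

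Colonies were set against ESC to ask how far the reprogrammed cells resemble an established line. Epas1, P4ha1 and P4ha2 were higher in the colonies and Egln1 was lower, which makes 4 of 10 genes called in the fit of iPSC colonies against ESC. In that comparison 16.3% of 20502 tested genes were called, 8.76% higher and 7.56% lower. In GC colonies alone 3 genes were higher and 1 lower, against a background of 13.0% called, 7.53% higher and 5.51% lower. In M colonies alone 3 were higher and 0 lower, against 16.2% called, 8.84% higher and 7.37% lower. Both comparisons use the same ESC library. As ESC had n = 1, its spread could not be measured and was taken to equal that of the colonies. The median log2 change of the 10 genes, colonies minus ESC, was -0.12, and that of all genes was 0.02.

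Without any test, ESC stood below all 6 colonies for 4 genes (Hif1a, Epas1, P4ha1 and P4ha2) and above all 6 for 5 (Egln1, Egln2, Egln3, Vhl and Vegfa). Of all tested genes, 25.7% had ESC below all colonies and 25.7% had it above. Bnip3 was the 1 gene whose ESC level lay within the range of the colonies.

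**Figure D2:**
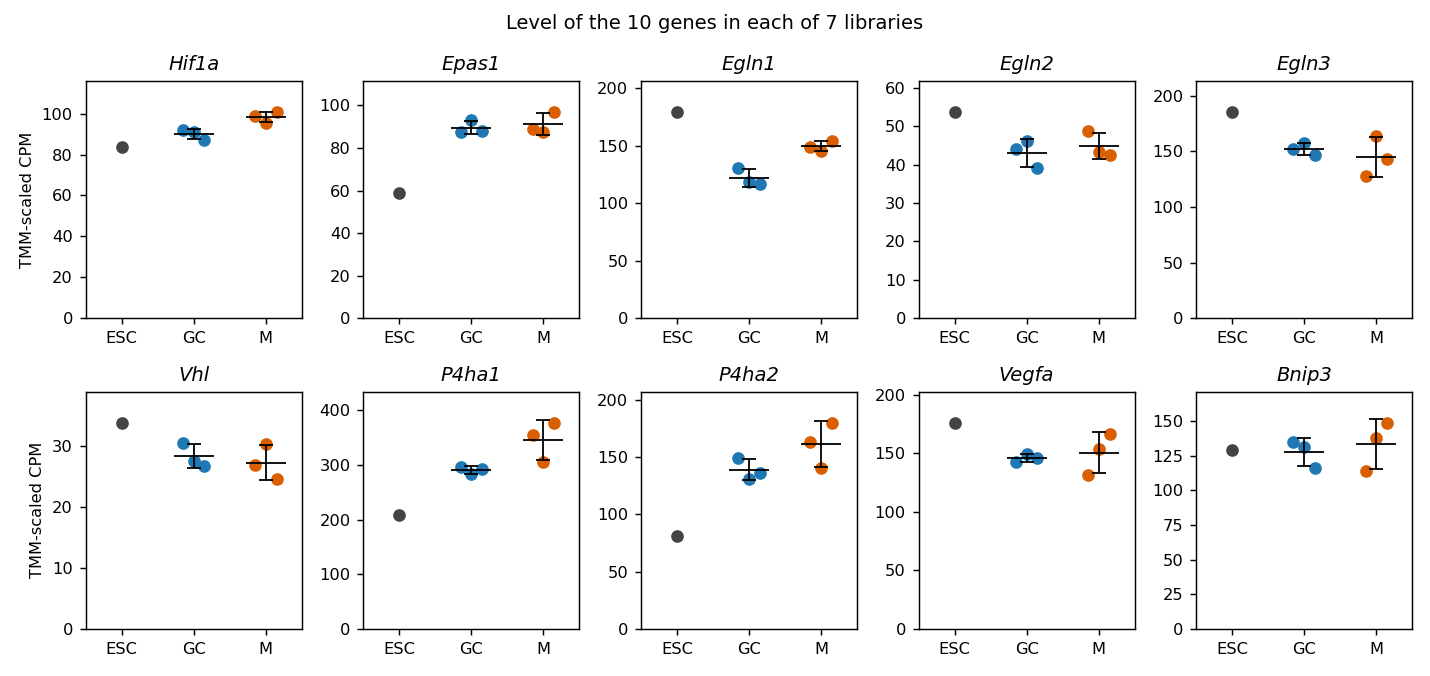
Level of each of the 10 genes (vertical axes from 0, TMM-scaled CPM) in ESC, GC colonies and M colonies; points are libraries, the wide bar is the group mean and the whiskers are 1 SD (n = 3). The ESC point lies under all colonies for Epas1, P4ha1 and P4ha2, and M colonies lie wholly above GC colonies for Hif1a, Egln1 and P4ha1.

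Among the HIF subunits, Epas1 (ENSMUSG00000024140, chromosome 17 from 86753700 to 86833410, GRCm38) encodes HIF-2 alpha, the subunit best known from endothelium and erythropoietin-producing cells. It measured 58.7 CPM in ESC, 87.4, 92.9 and 87.9 CPM in GC colonies 1 to 3, and 89.1, 87.5 and 96.9 CPM in M colonies 1 to 3. The 6 colonies formed 1 tight range above ESC, and the colony groups overlapped. Epas1 rose 1.52-fold in GC colonies (log2 change 0.61 ± 0.10 SE, edgeR adjusted p = 0.00136) and 1.55-fold in M colonies (0.64 ± 0.10, edgeR adjusted p = 8.08e-04).

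Hif1a encodes HIF-1 alpha, the widely expressed subunit that drives glycolytic targets. It measured 83.6 CPM in ESC, 92.1, 91.2 and 87.2 CPM in GC colonies, and 98.7, 95.6 and 100.8 CPM in M colonies. The 3 groups did not overlap and ran in the order ESC, GC, M, but no difference passed the test. The log2 change, M against GC colonies, was 0.12 (95% interval from -0.01 to 0.26, edgeR adjusted p = 0.359), and against ESC it was 0.11 in GC colonies (edgeR adjusted p = 0.499) and 0.23 in M colonies (edgeR adjusted p = 0.107). The ratio of Epas1 to Hif1a, per kilobase, was 0.740 in ESC and 0.952 to 1.08 in the 6 colonies. Exons of the antisense gene Gm15283 overlap those of Hif1a over 330 bases, and it held 52 to 75 counts per library against 2495 to 3318 for Hif1a.

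Of the oxygen sensors, Egln1 (ENSMUSG00000031987, chromosome 8 from 124908587 to 124949324) encodes PHD2, the main HIF prolyl hydroxylase of most tissues. Its level was 179 CPM in ESC, 131, 118 and 117 CPM in GC colonies, and 149, 145 and 154 CPM in M colonies. ESC was highest, M colonies were intermediate and GC colonies were lowest, with no overlap between the groups. Egln1 was 1.47-fold lower in GC colonies than in ESC (log2 change -0.56 ± 0.09 SE, edgeR adjusted p = 0.00114). In M colonies the change against ESC was -0.26 ± 0.09 and did not pass (edgeR adjusted p = 0.0706), although it passed without GC colony 3 (edgeR adjusted p = 0.0409).

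Egln1 was the 1 gene of the 10 called between the colony groups, where 3.97% of 18166 genes were called, 1.70% higher and 2.27% lower in M colonies. It was 1.22-fold higher in M than in GC colonies (log2 change 0.29 ± 0.07 SE, edgeR adjusted p = 0.0274). This call was lost without GC colony 2 (edgeR adjusted p = 0.177), M colony 1 (edgeR adjusted p = 0.0512) or M colony 3 (edgeR adjusted p = 0.147), while the log2 change stayed between 0.27 and 0.35.

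The ESC library carried more RNA of chromosome 8, which holds Egln1. Over 702 expressed genes of that chromosome, the median log2 change was -0.30 for GC colonies against ESC and -0.28 for M colonies against ESC. These were the lowest medians of any chromosome. Egln1 lay 0.26 log2 units below the median of its chromosome in GC colonies, and 18.1% of chromosome 8 genes fell at least as far. In M colonies its change was close to that median, and 54.6% of the genes fell at least as far. Chromosome 8 as a whole differed by 0.02 between M and GC colonies. The part of the chromosome-wide shift in the Egln1 difference from ESC was not tested.

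**Figure D3:**
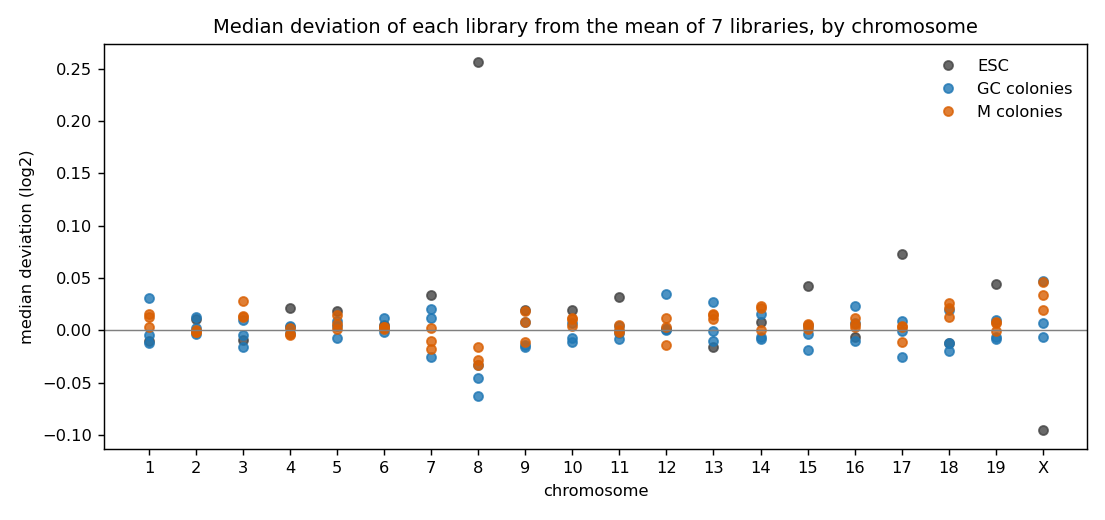
Median deviation of each library from the mean of the 7 libraries (vertical axis, log2 units) for expressed genes of each chromosome; each point is a library. ESC stands at 0.26 on chromosome 8, where all 6 colonies lie below 0, and at -0.10 on the X chromosome.

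Egln3 encodes PHD3, a hydroxylase whose own gene is a HIF target. It measured 185 CPM in ESC, 152, 158 and 146 CPM in GC colonies, and 128, 164 and 144 CPM in M colonies. ESC was above all colonies, but the difference did not pass over all colonies (log2 change -0.32, 95% interval from -0.55 to -0.09, edgeR adjusted p = 0.0565). It passed in DESeq2 (adjusted p = 0.0374), in edgeR with no low-count filter (adjusted p = 0.00599) and in edgeR without M colony 2 (adjusted p = 0.0164).

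Egln2, which encodes PHD1, was the least abundant of Egln1, Egln2 and Egln3. It measured 53.7 CPM in ESC, 44.0, 46.1 and 39.0 CPM in GC colonies, and 48.8, 43.2 and 42.6 CPM in M colonies. Its log2 change, colonies against ESC, was -0.29 (95% interval from -0.54 to -0.04, edgeR adjusted p = 0.109). Vhl, the substrate receptor of the ubiquitin ligase that removes hydroxylated HIF, measured 33.9 CPM in ESC, 30.6, 27.6 and 26.8 CPM in GC colonies, and 27.0, 30.3 and 24.7 CPM in M colonies. Vhl had a like change of -0.28 (95% interval from -0.57 to -8.19e-04, edgeR adjusted p = 0.173). Egln1, Egln2, Egln3 and Vhl thus each stood highest in ESC, as did 25.7% of all tested genes. Egln1, on chromosome 8, was the 1 called in edgeR with the low-count filter over all libraries.

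P4ha1 and P4ha2 encode the catalytic alpha subunits of collagen prolyl 4-hydroxylase. This enzyme of the endoplasmic reticulum belongs to the same family of oxygen-using dioxygenases as the HIF hydroxylases but acts on procollagen. Both genes are known HIF targets. P4ha1 (ENSMUSG00000019916, chromosome 10 from 59323296 to 59373304) measured 208 CPM in ESC, 296, 282 and 292 CPM in GC colonies, and 355, 306 and 377 CPM in M colonies. Every colony exceeded ESC, and every M colony exceeded every GC colony.

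P4ha1 rose 1.39-fold in GC colonies (log2 change 0.48 ± 0.11 SE, edgeR adjusted p = 0.00908) and 1.66-fold in M colonies (0.73 ± 0.11, edgeR adjusted p = 4.57e-04) against ESC. Between M and GC colonies its log2 change was 0.25 ± 0.07 and did not pass (edgeR adjusted p = 0.0847). That difference passed in DESeq2 (adjusted p = 0.0274), in edgeR with the colony number as a replicate block (adjusted p = 0.0355), in edgeR with no low-count filter (adjusted p = 0.00532) and in edgeR without M colony 2 (adjusted p = 0.0151).

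P4ha2 (ENSMUSG00000018906, chromosome 11 from 54100095 to 54131665) had the largest change of the 10 genes. It measured 81.2 CPM in ESC, 149, 131 and 137 CPM in GC colonies, and 163, 141 and 180.2 CPM in M colonies. The lowest colony was well above ESC, and the colony groups overlapped. P4ha2 rose 1.71-fold in GC colonies (log2 change 0.78 ± 0.13 SE, edgeR adjusted p = 0.00135) and 1.99-fold in M colonies (0.99 ± 0.13, edgeR adjusted p = 2.04e-04). The M against GC change was 0.21 (95% interval from 0.02 to 0.40, edgeR adjusted p = 0.231).

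The calls of Epas1, P4ha1 and P4ha2 against ESC held in each alternative run, with each colony left out in turn. Primitive endoderm markers, genes of an extraembryonic lineage that makes much basement membrane collagen, moved in the same direction. All 11 passed in colonies against ESC, and they summed to 539 CPM in ESC, 2065 to 2513 CPM in GC colonies and 2521 to 4107 CPM in M colonies. In M colonies both P4ha genes, Epas1 and this sum were lowest in colony 2 and highest in colony 3. In GC colonies the P4ha genes and the sum were also lowest in colony 2. Among GC colonies, the P4ha genes were highest in colony 1 and the sum in colony 3. Epas1 was highest in GC colony 2, at 92.9 CPM, where the sum was lowest. Of the 11 markers, 4 were called higher in M than in GC colonies. That number was 2 when GC colony 2 or M colony 3 was left out, and 10 when M colony 2 was.

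Fibroblast markers, which feeder cells would add, summed to 509.7 CPM in ESC, 731 to 868 CPM in GC colonies and 808 to 1033 CPM in M colonies. Of 15 tested, 8 were higher in colonies than in ESC. The sum was highest in GC colony 3 and M colony 1, and lowest in GC colony 1 and M colony 3. Col1a1 measured 212 CPM in ESC and 291 to 408 CPM in colonies, Col1a2 91.5 and 146 to 199.9 CPM, and Pdgfra 5.36 and 19.1 to 39.0 CPM, all called higher. Prrx1 (10.6 CPM in ESC, 17.7 to 23.3 CPM in colonies) and Fbn1 (16.1 and 27.7 to 41.6 CPM) also stood above ESC in every colony. Col6a1 overlapped ESC (13.9 and 12.1 to 18.7 CPM), and 7 of the 15 markers did not pass. At the other end, Lum was at most 0.127 CPM and Dcn at most 1.47 CPM in any library. Col1a1, Col1a2 and Pdgfra are also expressed by cells other than fibroblasts. The part of either marker group in the P4ha and Epas1 differences was not tested, and in bulk RNA fewer cells of a type and less RNA per cell cannot be told apart. Endothelial markers, measured because Epas1 is abundant there, summed to 151 CPM in ESC, 135 to 144 CPM in GC colonies and 90.7 to 106 CPM in M colonies. Of 9 endothelial markers tested, 3 were higher and 1 was lower in colonies than in ESC, and 2 of 8 were lower in M than in GC colonies. Pecam1, the 1 that was lower, made up most of the sum, at 140.0 CPM in ESC and 64.9 to 102.7 CPM in colonies. The list's median log2 change went the other way, at 1.40. Tie1 rose from 2.78 CPM in ESC to 5.87 to 25.5 CPM, Tek from 2.81 to 5.63 to 9.39 CPM, and Cdh5 reached at most 2.96 CPM.

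**Figure D4:**
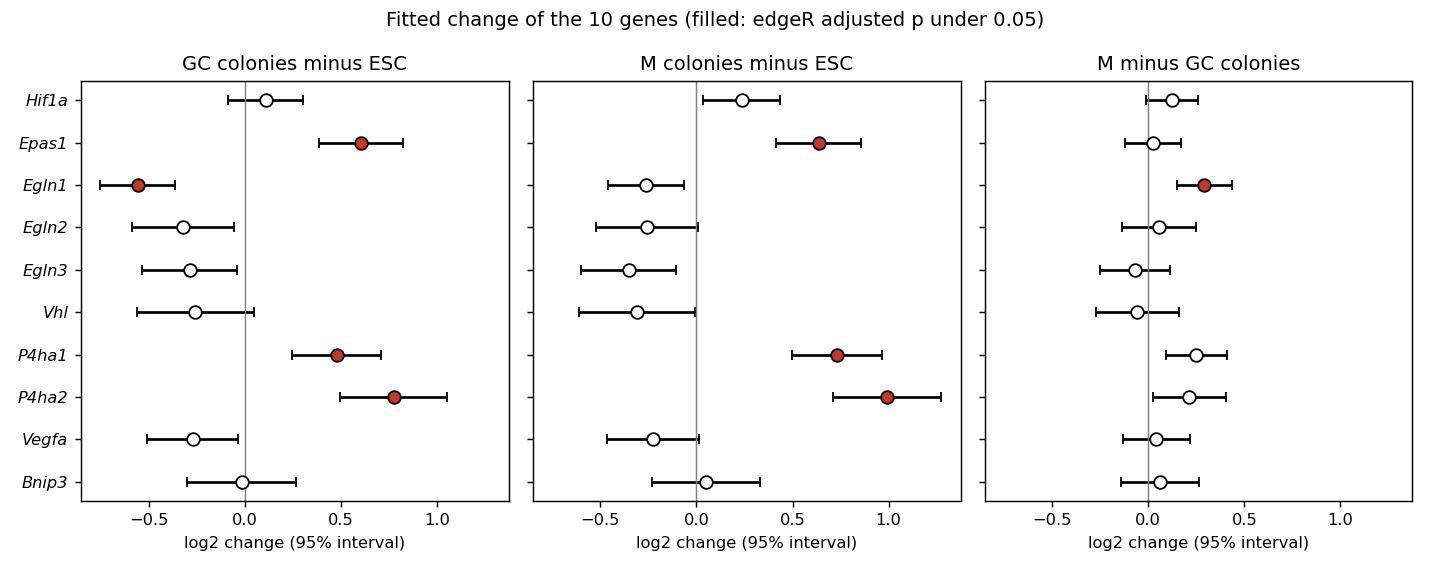
Fitted log2 change (horizontal axis) of each gene with its 95% interval for GC colonies against ESC, M colonies against ESC and M against GC colonies; filled points passed edgeR at an adjusted p under 0.05. Epas1, P4ha1 and P4ha2 lie to the right of 0 in both comparisons with ESC, Egln1 lies to the left in GC colonies, and Egln1 is the filled point between the colony groups.

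Vegfa and Bnip3, classical outputs of the pathway, showed no called change. Vegfa encodes the main growth factor of blood vessels. It measured 176 CPM in ESC, 142, 149.6 and 146 CPM in GC colonies, and 132, 153 and 166 CPM in M colonies. ESC exceeded all colonies, with a log2 change of -0.25 for colonies against ESC (95% interval from -0.47 to -0.03, edgeR adjusted p = 0.126).

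Bnip3 encodes a mitochondrial outer membrane protein that promotes removal of mitochondria in hypoxia. It measured 129 CPM in ESC, 135, 131 and 116 CPM in GC colonies, and 114, 138 and 149 CPM in M colonies. The log2 change against ESC was 0.02 (95% interval from -0.25 to 0.28, edgeR adjusted p = 0.951), with a sign that flipped when a single colony was left out. The intervals of Vegfa and Bnip3 exclude a rise of the size fitted for P4ha2.

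Spread between sister colonies was wider in M than in GC colonies for Vegfa, Bnip3 and Egln3, and also for Epas1, Vhl, P4ha1 and P4ha2. It was not wider for Hif1a, Egln1 and Egln2. The coefficient of variation of Vegfa was 2.49% in GC and 11.7% in M colonies, that of Egln3 was 3.71% and 12.4%, and that of P4ha1 was 2.47% and 10.5%. M colony 1 was the lowest M colony for Vegfa, Bnip3 and Egln3, whereas it was not the lowest for P4ha1 or P4ha2. With 3 colonies a group, these spreads were not tested.

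Promoters were examined because P4ha1, P4ha2 and other HIF targets of the group did not move alike. RefSeq windows of 250 bases before to 50 after each start (GRCm38.p6) were found for 9 of the 10 genes, 11 windows in all. The HIF core motif was searched as ACGTG and GCGTG on both strands, and matches may overlap. At least 1 match stood in 9 of 11 windows, against 43.8% of 32851 windows of all genes, and ACGTG stood in 8 of 11, against 19.6%. The share over the 11 windows is a description, since HIF targets were chosen as such. The first of 2 Egln2 windows held the most, 6 matches, and its second held 1. Bnip3, which was not called, held 5, P4ha2 and P4ha1, which rose, held 4 and 3, Hif1a held 3 and Egln1 held 2. The second of 2 Vegfa windows held 2 and Egln3 held 1, and Vhl and the first Vegfa window held 0.

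The stretches before the start are printed for the P4ha pair and Egln1, which differed from ESC, and for Bnip3, which held 5 matches without a called difference. Each is given 5′ to 3′ on the gene's strand, leaving out bases inside annotated exons, with the core motif of either strand in capitals.

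P4ha1 (chr10:59323126-59323295, plus strand): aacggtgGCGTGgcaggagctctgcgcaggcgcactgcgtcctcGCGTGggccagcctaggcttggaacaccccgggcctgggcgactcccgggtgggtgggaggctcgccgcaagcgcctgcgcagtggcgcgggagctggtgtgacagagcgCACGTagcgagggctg

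P4ha2 (chr11:54100754-54100923, plus strand): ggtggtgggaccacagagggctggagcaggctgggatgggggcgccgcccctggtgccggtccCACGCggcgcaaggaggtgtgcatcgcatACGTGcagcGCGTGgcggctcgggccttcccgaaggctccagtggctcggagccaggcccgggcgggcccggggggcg

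Egln1 (chr8:124949325-124949424, minus strand): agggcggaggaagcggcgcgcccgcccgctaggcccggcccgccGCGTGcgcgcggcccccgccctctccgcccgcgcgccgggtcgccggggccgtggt

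Bnip3 (chr7:138909520-138909676, minus strand): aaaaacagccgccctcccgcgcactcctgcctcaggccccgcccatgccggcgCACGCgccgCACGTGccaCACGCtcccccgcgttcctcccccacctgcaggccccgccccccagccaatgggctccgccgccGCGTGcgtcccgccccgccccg

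In P4ha2 an ACGTG match begins 78 bases before the start and a GCGTG match begins 69 bases before it. Another ACGTG match of P4ha2 begins 11 bases after the start and is not printed. The printed P4ha2 stretch lies before the RefSeq start but inside the GENCODE gene, which begins at 54100095. In Bnip3 an ACGTG match on each strand overlaps as 1 palindrome, 108 bases before the start, with a GCGTG match of the other strand on either side. In P4ha1 the ACGTG match lies on the other strand, 16 bases before the start. A second Egln1 match, 68 bases before the RefSeq start, falls in an annotated exon and is not printed. A match of these letters is not evidence that a factor binds there.

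Other genes of the pathway were read from 5 lists. For each, the 4 genes with the smallest p in M against GC and in colonies against ESC were the ones to name. Over all genes, 16.3% were called in colonies against ESC, 8.76% higher and 7.56% lower. The counts of the lists were not tested against these shares. Of 9 HIF subunits and co-factors, 2 rose in colonies against ESC and 7 did not pass, with a median log2 change of 0.09 (0.02 over all genes). Both are co-factors that bind the p300 and CBP acetyltransferases. Cited1 rose from 2.75 CPM in ESC to 13.5 ± 2.7 (GC colonies) and 22.6 ± 3.6 CPM (M colonies), as mean ± SD of 3. Cited2, which competes with HIF for p300, rose from 54.0 CPM to 98.8 ± 8.8 and 112.7 ± 8.7 CPM. Cited4, next by p, did not pass over all colonies (log2 change 1.03, edgeR adjusted p = 0.0618) and measured 1.74 CPM in ESC, 4.08 ± 0.80 (GC colonies) and 3.11 ± 0.74 CPM (M colonies). It was called in GC colonies alone (edgeR adjusted p = 0.0423), and over all colonies with no low-count filter (0.0436), without GC colony 3 (0.0330) or without M colony 2 (0.0499). Ep300, which encodes p300 itself, measured 144 CPM in ESC, 148 ± 22 (GC colonies) and 158 ± 4 CPM (M colonies).

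Of 12 genes of oxygen sensing and HIF degradation, 3 fell in colonies against ESC, 0 rose and 9 did not pass, with a median log2 change of -0.21. P4htm, a transmembrane prolyl hydroxylase, fell from 11.1 CPM in ESC to 6.58 ± 0.16 (GC colonies) and 6.32 ± 1.11 CPM (M colonies). Siah1a, a ubiquitin ligase subunit that targets PHD enzymes, fell from 38.3 to 27.4 ± 0.9 and 26.6 ± 0.8 CPM. It lies on chromosome 8, where 36.8% of expressed genes were called lower in colonies against ESC. Siah1a resembles Siah1b, with which it may share reads. Usp20, a deubiquitinase, fell from 18.6 to 13.0 ± 0.9 and 12.7 ± 1.0 CPM. Elob, a partner of Vhl in its ligase, measured 232 CPM in ESC and 192 ± 17 and 193 ± 10 CPM in the colony groups (edgeR adjusted p = 0.0681). It passed without GC colony 1, at 0.0323, and with no low-count filter, at 0.0244. Os9 and Eloc went the other way and did not pass (log2 change 0.39 and 0.26, edgeR adjusted p = 0.0701 and 0.0765).

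Of 11 dioxygenases of collagen and chromatin and their partners, 4 rose in colonies against ESC, 1 fell and 6 did not pass, with a median log2 change of 0.09. All 4 that rose act on procollagen, as does Plod1, the 1 that fell, which was named after its values were seen. Plod2, a lysyl hydroxylase of collagen, rose from 146 CPM in ESC to 306 ± 17 (GC colonies) and 346 ± 40 CPM (M colonies). P4ha3, a further collagen hydroxylase subunit, rose from 4.15 to 11.2 ± 1.7 CPM in GC colonies and to 10.1 to 11.7 CPM in M colonies. P4hb, the beta subunit that pairs with P4ha1 and P4ha2, rose from 499 to 649 ± 17 and 799 ± 79 CPM. Plod3 rose from 76.6 to 99.4 ± 7.7 and 110.3 ± 12.2 CPM, while Plod1 fell from 97.2 to 77.6 ± 3.9 and 76.4 ± 5.4 CPM. The Plod1 call was lost without GC colony 2 (edgeR adjusted p = 0.0657) or M colony 3 (edgeR adjusted p = 0.0522). M colony 2 had the lowest M colony value of Plod2, P4hb and Plod3, as for P4ha1 and P4ha2.

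Of 9 genes of the VEGF family and its receptors, 4 rose in colonies against ESC, 1 fell and 4 did not pass, with a median log2 change of -0.01. Every called gene is a receptor or co-receptor. Flt1, a receptor that binds Vegfa, rose from 14.9 CPM in ESC to 36.3 ± 3.6 (GC colonies) and 51.8 ± 5.8 CPM (M colonies). Flt4, the Vegfc receptor, rose from 5.53 to 13.2 ± 0.8 and 9.99 ± 1.52 CPM. Nrp1 rose from 2.51 to 6.43 ± 1.23 and 6.61 ± 1.07 CPM, and its relative Nrp2 fell from 50.2 to 28.8 ± 2.2 and 22.5 ± 3.0 CPM. Kdr, named after its values were seen, rose from 0.335 CPM to 1.27 ± 0.15 and 1.41 ± 0.21 CPM. Its ESC level rests on few counts in 1 library, where a count of 0 allows up to 0.0963 CPM.

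Of 48 hypoxia response targets, 9 rose in colonies against ESC, 11 fell and 28 did not pass, with a median log2 change of -0.14. Loxl2, Lox and Tfrc were among those with the smallest p. Loxl2 and Lox are enzymes that crosslink collagen. Loxl2 rose from 76.7 CPM in ESC to 148 ± 4 (GC colonies) and 166 ± 16 CPM (M colonies), and Lox from 96.9 to 184 ± 14 and 176 ± 27 CPM. Tfrc, the transferrin receptor, rose from 333 to 496 ± 36 and 502 ± 34 CPM.

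Glycolytic enzymes were among the targets that fell, and those given here were chosen after their values were seen. Gapdh measured 6922 CPM in ESC, 5404 ± 336 (GC colonies) and 5335 ± 123 CPM (M colonies) (log2 change -0.37 against ESC, edgeR adjusted p = 0.00116). Pfkl, Aldoa, Pgk1 and Eno1 fell by 0.34, 0.33, 0.22 and 0.28 on the log2 scale. The Pgk1 call was lost without GC colony 2 (edgeR adjusted p = 0.0787). Ldha measured 2741, 2449 ± 174 and 2463 ± 13 CPM and Slc2a1, the main glucose transporter, 1358, 1184 ± 107 and 1218 ± 173 CPM, and neither passed. The list thus had called members in both directions.

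**Figure D5:**
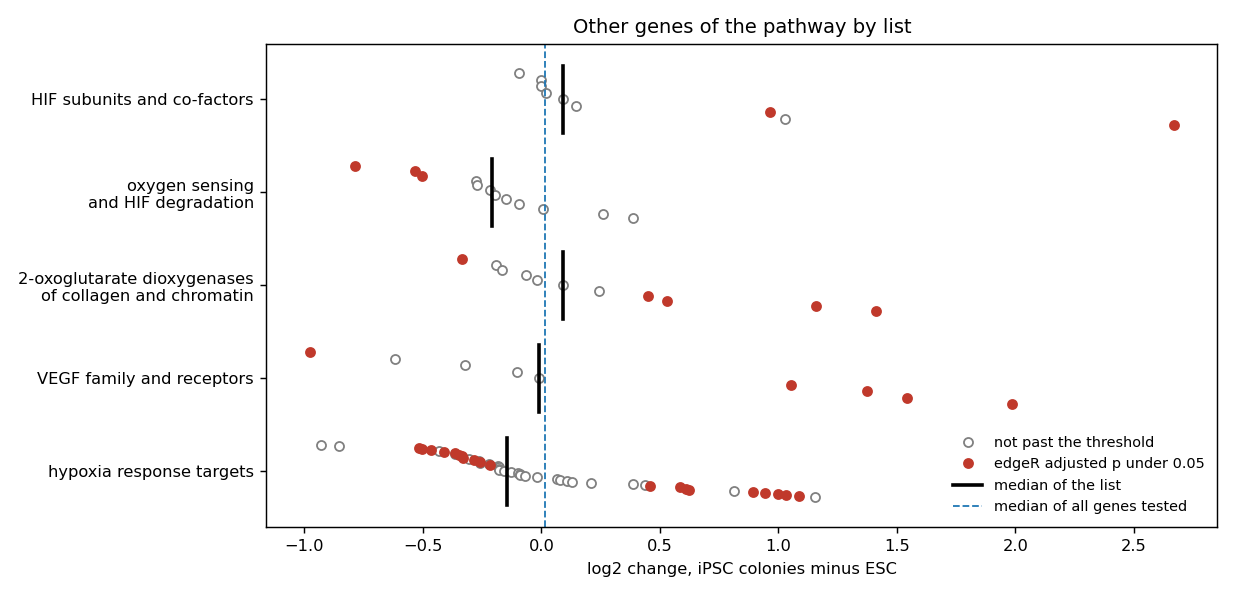
Log2 change of each listed gene, iPSC colonies minus ESC (horizontal axis), by list; filled points passed edgeR at an adjusted p under 0.05, black bars are list medians and the dashed line is the median of all genes, 0.02. Called targets lie on both sides of 0. The 3 called genes of oxygen sensing and HIF degradation lie to the left, where 7.56% of all genes were called.

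The contrast of M with GC colonies sets 3 picked clones of each B cell source side by side. A mark of the starting cells cannot be told apart here from differences between clones or in primitive endoderm marker levels. Beside Egln1, non-overlapping groups were seen for Hif1a and P4ha1, 3 of 10 genes, against 22.1% of all genes. Each of the 5 lists had 1 called gene, higher in M colonies, of 9, 12, 11, 9 and 47 tested. With 3.97% of all genes called, such counts are not a result about the lists. These were Cited1 (log2 change 0.74 ± 0.15 SE, edgeR adjusted p = 0.0172), Siah1b (0.30 ± 0.08, edgeR adjusted p = 0.0480), P4hb (0.30 ± 0.07, edgeR adjusted p = 0.0302), Flt1 (0.51 ± 0.10, edgeR adjusted p = 0.0126) and Pfkfb3 (0.35 ± 0.08, edgeR adjusted p = 0.0397). Pfkfb3 encodes a kinase that stimulates glycolysis and measured 65.0 CPM in ESC, 60.8 ± 1.5 (GC colonies) and 77.5 ± 9.0 CPM (M colonies).

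The next genes of each list by p did not pass, M against GC. Among co-factors and subunits, Hif3a, an alpha subunit that can restrain the others, had a log2 change of 0.26 (edgeR adjusted p = 0.188), Cited2 one of 0.19 and Cited4 one of -0.40. Os9, Cul2 and Siah1a of the degradation list lay at -0.10, -0.06 and -0.05. Kdm4c, a histone demethylase, Plod2 and Plod3 lay at 0.16, 0.17 and 0.15, and the VEGF receptors Nrp2 and Flt4 and the ligand Vegfc at -0.36, -0.40 and -0.14. Of the targets, Ddit4, an inhibitor of mTORC1, lay at 0.32 (edgeR adjusted p = 0.0614), Hmox1, heme oxygenase, at 0.23 (edgeR adjusted p = 0.0888) and Gbe1, the glycogen branching enzyme, at 0.40 (edgeR adjusted p = 0.0904). These 3 passed in DESeq2 (adjusted p = 0.00841, 0.0385 and 0.0447) and in edgeR with no low-count filter, and each passed in edgeR without 1 colony: M colony 1 for Ddit4, M colony 2 for Hmox1 and GC colony 3 for Gbe1. Ddit4 also passed with the replicate block (edgeR adjusted p = 0.0443), and Nrp2 with no filter (edgeR adjusted p = 0.0341).

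None of these 5 calls held with every colony left out in turn. Siah1b was lost in 6 of 6 leave-outs (edgeR adjusted p from 0.0681 to 0.169). Cited1 was lost without GC colony 2 or M colony 3 (up to 0.109), and Flt1 when M colony 3, GC colony 1 or GC colony 2 was omitted (up to 0.0887). P4hb was lost on omitting M colony 1, M colony 3, GC colony 1 or GC colony 2 (up to 0.167), and Pfkfb3 on omitting M colony 2, M colony 3, GC colony 1 or GC colony 2 (up to 0.221). The median log2 change, M against GC, was 0.06 over the 10 genes, 0.04 over the 47 targets tested and 0.00266 over all genes.

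Genes of like pattern were sought for Epas1, P4ha1 and P4ha2. These 3 genes had the largest called changes in GC against ESC, M against ESC or M against GC. Likeness was the Pearson correlation of log2 CPM over the 7 libraries among 20502 genes, where ESC stands far from the colonies and so weighs heavily. Among the highest for P4ha2 were Lhfpl2 (r = 0.9980), Cd82 (0.9970) and Clic5 (0.9954). Those for P4ha1 were Atp6v0a1 (0.9955) and Tpm4 (0.9951), and those for Epas1 were Spon2 (0.9921), Srpx2 (0.9914) and Lpar3 (0.9880). With 7 points and so many genes, such values describe these libraries only.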

How the data were processed

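Poly-A RNA of 7 cultures was analysed from the raw counts per Ensembl gene that the authors deposited as whole numbers. STAR 2.7.10a, featureCounts 2.0.6, DESeq2 and the builds mm10 and GRCm38 are named in the submitters' processing notes. The strand setting was not given in the sources used here, and the labels disagree on whether the library kit was stranded, so antisense partners may share counts. Among counts of 1 to 49, 68.5% to 72.2% were even in each library, so counts may overstate fragments. A count of 0 allows up to 3 counts, 0.0840 to 0.0963 CPM, for counting error only. Gene names, positions and exon lengths came from GENCODE M21 (GRCm38), which matched 54809 of 54838 genes. Bmal1 and Ero1a were matched by synonym.

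Counts were filtered with filterByExpr, given TMM scaling and compared by the two-sided quasi-likelihood test in edgeR 4.0.16, Benjamini-Hochberg adjusted over all genes, with a threshold of 0.05. M against GC used 6 libraries (18166 genes) and comparisons with ESC all 7 (20502 genes). CPM levels are from the scaling of all 7. SE is the log2 change over the root of its F statistic. Alternatives were RLE scaling, no filter, DESeq2 1.42.0, other sample sets, a replicate block and leaving out each colony. In simulated data with 200 genes changed 2-fold, edgeR recovered 94% of them for M against GC and 79% for colonies against ESC. Smaller changes were not simulated, and the simulated ESC library had the spread of the colonies. The 10 genes were named by symbol, pathway genes by the smallest p in their list, and like genes by correlation over libraries. Members and lists were chosen with earlier results of these data known. Some genes that these rules name are not reported here.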

Additional observations from a re-analysis of the deposited data

Results flagged for a closer look

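Among the genes chosen here and the pathway lists, 6 genes differed between GC and M colonies by the edgeR test of M against GC. Their changes against ESC thus differ between the colony groups. Over all 18166 genes tested, 3.97% were called. The log2 change, M minus GC, was 0.29 for Egln1, 0.74 for Cited1, 0.30 for Siah1b, 0.30 for P4hb, 0.51 for Flt1 and 0.35 for Pfkfb3. For Egln1 this means 0.680 of the ESC level in GC colonies and 0.834 of it in M colonies. Each of the 6 was higher in all 3 M colonies than in any GC colony. Selection by that test favours such an order, so it adds no support. Groups did not overlap for 22.1% of all genes. Each of the 6 calls was lost without at least 1 colony.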

How the results depend on the processing

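Of 400 values of the 10 genes under alternatives, 372 kept their direction and side of the threshold, 13 newly passed, 3 no longer passed (Egln1, M against GC) and 12 changed sign. The calls of Epas1, P4ha1 and P4ha2 against ESC, and of Egln1 in GC colonies against ESC, held in all 10 alternatives of each comparison of 1 colony group. Between M and GC colonies, 721 genes were called, 1318 with no filter on low counts and 1084 in DESeq2, and 244 to 814 with 1 colony left out (GC colony 2 gave 244, M colony 3 gave 270 and GC colony 1 gave 412). Of the 10 genes, 2 were called there with no filter and 2 in DESeq2 (Egln1 and P4ha1), and 0 to 2 with 1 colony left out. For M colonies against ESC, 3 to 5 were called with 1 colony left out, 5 without GC colony 3. Leaving out 1 colony changed the sign of M against GC for Epas1 (-0.0194 to 0.0600), Egln2 (-0.0054 to 0.1152), Egln3 (-0.1662 to 0.0167), Vhl (-0.1379 to 0.0135), Vegfa (-0.0348 to 0.1324) and Bnip3 (-0.0209 to 0.1671). It did so for Bnip3 against ESC in GC (-0.0550 to 0.0495), M (-0.0348 to 0.1512) and all colonies (-0.0239 to 0.0677). None of these sign changes involved a called value, and the cause was not tested.

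GC and M colonies carry the same numbers in their titles, which no label explains. Same-numbered colonies had deviations correlated at 0.073, 0.075 and 0.164, and each colony correlated best with its own number, a hint from the data only. With the colony number as a replicate block, 963 genes and 2 of the 10 genes (Egln1 and P4ha1) were called. With 1 ESC library, no alternative tests how far that library stands for the line.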
